A study of Rattus norvegicus with 14 samples.

Results

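The nuclear genes for respiratory complexes II to V were examined in the motor cortex of spinal cord-injured male rats. Members were the probe sets with a single gene symbol that begins with Uqcr, Cox4i, Cox5, Cox6, Cox7, Cox8 or Atp5, or that is Sdha, Sdhb, Sdhc, Sdhd or Cyc1, without pseudogenes whose symbol ends in -ps. These were 54 probe sets, and a gene with several was represented by its brightest, by the mean over the 14 arrays, which left 51 genes of the 22093 with a single-symbol probe set. They comprised 4 genes of complex II, 11 of complex III, 16 of complex IV and 20 of complex V. Of the 51, 42 carried the name of a subunit or a factor bound to the complex and 9 carried the name of a copy of another member, such as Uqcrbl1 or Atp5mc1l1. The rule rests on gene symbols, and within it measured values chose only the probe set of a gene with several. These gene families were chosen with earlier results of these data known, including lower means over the respiratory chain.

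Complex II oxidises succinate and feeds electrons into the inner mitochondrial membrane, complex III passes them from ubiquinol to cytochrome c, and complex IV passes them from cytochrome c to oxygen. Complex V, the ATP synthase, uses the proton gradient built by the respiratory chain to make ATP, on which neurons rely heavily to restore ion gradients. Most subunits are encoded in the nucleus and imported, and several complex IV subunits exist as a general isoform and as isoforms restricted to muscle, lung or testis.

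All animals had a spinal cord injury and received cyclosporine A, an immunosuppressant, each day. At 24 hours after the injury 7 samples' animals were infused with MSC and 7 with vehicle through the femoral vein, and motor cortex was collected 3 days after the infusion. The abbreviation MSC commonly stands for mesenchymal stem or stromal cells; their source and dose were not given in the sources used here. No uninjured or untreated group was part of the comparison, so every value comes from an injured, immunosuppressed animal. Target was made from 100 ng of total RNA and hybridised to 1 Affymetrix whole-transcript array per sample. The labels of each array name a group and a number, but they do not tie each array to its own rat. The p-values therefore reflect only the scatter among these arrays, part of which may be technical. A single field of MSC 7, its description, says vehicle where the remaining fields say MSC, and the array was kept as MSC.

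The deposited values are log2 probe set levels after RMA, a procedure that subtracts background, equalises the arrays' distributions and summarises the probes of a set. They ran from 2.74 to 19.9, with array medians of 5.77 to 5.90. A log2 level cannot be set against that of another probe set, so genes are compared only with themselves across arrays. Of 8 listed excitatory neuron genes, 7 were measured, and 0 of these 7 lay below the array medians. The astrocyte, oligodendrocyte, microglia and red blood cell lists also had 0 below. The array medians lay under the medians of the arrays' negative control probe sets (6.32 to 6.61), so this does not check the tissue label. Choroid plexus markers, 6 genes of the tissue that makes cerebrospinal fluid, averaged 9.80 on MSC 4 and 9.69 on vehicle 2 and at most 6.55 on the other arrays. In bulk tissue, fewer cells of a type and less RNA per cell cannot be told apart.

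Upstream sequences were available for 41 of the 51 members, 35 of them among the 42 subunits, in the RefSeq promoter table of build GRCr8. The 250 bases before each annotated start were searched on both strands for letters bound by factors known to drive respiratory genes, since the genes share these regulators. The letters were GCATGCGC for NRF1, nuclear respiratory factor 1, CCGGAAG for ETS factors such as GABP, AAGATGGC for YY1, and CAGCTG, an E-box read by muscle factors. CCGGAAG and AAGATGGC can overlap by the letters AAG, and each motif was searched independently of the rest. NRF1 letters were found in 6 of 35 subunit windows (17.1%) against 2.95% of 19005 protein-coding windows of the same length. ETS letters were found in 12 of 35 (34.3%) against 9.52%, YY1 letters in 1 of 35 (2.86%) against 1.71%, and the E-box in 6 of 35 (17.1%) against 11.9%. The windows of both sets had the same median GC content, 54.8%. The windows of 5 members are shown in lower case, 5′ to 3′ on the gene's strand, with matched letters in capitals. Uqcrh (chr5:134790883-134791132, minus strand) and Uqcrq (chr10:38089979-38090228, minus strand) are the complex III members with the smallest unadjusted p-values and hold ETS letters. Uqcrc1 (chr8:118467973-118468222, plus strand) is the member that followed the array sets most closely and holds NRF1 letters. Sdhb (chr5:158547684-158547933, plus strand) holds both, and Cox6a2 (chr1:192219717-192219966, minus strand), the heart and muscle isoform, holds only the E-box.
Uqcrh: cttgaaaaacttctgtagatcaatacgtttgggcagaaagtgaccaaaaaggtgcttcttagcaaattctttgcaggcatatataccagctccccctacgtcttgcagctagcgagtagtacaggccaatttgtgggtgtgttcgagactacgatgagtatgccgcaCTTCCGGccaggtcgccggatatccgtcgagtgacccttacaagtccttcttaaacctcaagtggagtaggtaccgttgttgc
Uqcrq: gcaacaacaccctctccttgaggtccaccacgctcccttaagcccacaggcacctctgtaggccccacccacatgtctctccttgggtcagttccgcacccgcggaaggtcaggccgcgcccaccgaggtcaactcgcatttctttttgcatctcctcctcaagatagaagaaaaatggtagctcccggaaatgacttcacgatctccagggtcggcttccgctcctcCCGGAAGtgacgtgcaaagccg
Uqcrc1: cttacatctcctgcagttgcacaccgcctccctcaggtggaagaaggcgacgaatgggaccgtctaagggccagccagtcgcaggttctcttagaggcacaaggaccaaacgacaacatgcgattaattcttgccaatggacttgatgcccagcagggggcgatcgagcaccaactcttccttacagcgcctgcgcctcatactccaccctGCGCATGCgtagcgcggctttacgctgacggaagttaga
Sdhb: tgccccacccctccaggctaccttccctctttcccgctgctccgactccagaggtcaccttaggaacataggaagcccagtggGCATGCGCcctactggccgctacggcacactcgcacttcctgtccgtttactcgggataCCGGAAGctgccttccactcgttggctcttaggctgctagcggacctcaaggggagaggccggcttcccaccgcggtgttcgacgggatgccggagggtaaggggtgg
Cox6a2: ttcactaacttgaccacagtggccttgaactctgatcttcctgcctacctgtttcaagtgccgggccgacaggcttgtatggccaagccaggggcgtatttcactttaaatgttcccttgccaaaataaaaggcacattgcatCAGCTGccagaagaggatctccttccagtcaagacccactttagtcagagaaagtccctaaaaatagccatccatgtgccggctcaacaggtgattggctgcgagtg
A match of letters is a description and not a binding site.

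The question was whether levels of these genes differed between MSC and vehicle animals. No member passed an adjusted p of 0.05 in limma, a linear model fitted to every probe set, and 0 of all 68842 tested probe sets (0%) did. The smallest adjusted p of a member was 0.9999. At an unadjusted p below 0.05, 3 of 51 members were lower in the MSC group (Uqcrh, Uqcrq and Atp5pd) and 0 were higher, beside 2.41% and 1% of all tested probe sets. That count was 1 without MSC 5, 6 without vehicle 1, 1 with arrays centred on their medians and 6 with MSC 7 counted as vehicle. The 2.41% and 1% belong to the main fit, and the share over all probe sets was not counted under these changes. The 2 groups overlapped for each of the 51 members, and 0.032% of all probe sets had groups without overlap.

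Small differences leaned one way. The members were chosen with lower means over the respiratory chain already known from these data, so the counts are a description. Among the 51 members, 41 had a lower mean in the MSC group, 9 a higher mean, and Atp5f1b the same mean of 14.81 in both. That share, 80.4%, stands beside 58% of all tested probe sets, 52.4% of named genes taken once each, and 48% of the 13701 named genes whose mean exceeded every array median. The median log2 difference, MSC minus vehicle, was -0.071 over the members against -0.015 over all probe sets and -0.0038 over named genes. The 37 subunits other than copies and tissue-restricted isoforms gave 30 lower means and a median of -0.074. With each array centred on its median, 36 had a lower mean. Without MSC 3, the array with the lowest mean over the members, 39 of 51 had a lower mean and the median was -0.039. Without vehicle 3, 44 had a lower mean and the median was -0.080. Once MSC 4 and vehicle 2, the arrays with choroid plexus signal, were left out, 41 had a lower mean and the median was -0.066.

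The size of these differences was small beside the spread of the arrays. Differences ran from -0.197 for Atp5pd to 0.082 for Cox7cl1. The 95% interval of a member's difference reached a median of 0.176 to either side. It lay within a 1.2-fold change for 23 members, within 1.5-fold for 50 and within 2-fold for all 51, with Cox7b the member beyond 1.5-fold. On the arrays, the mean over all members ran from 9.81 through a median of 9.91 to 10.01 in the MSC group and from 9.86 through 9.97 to 10.07 in the vehicle group.

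**Figure D1:**
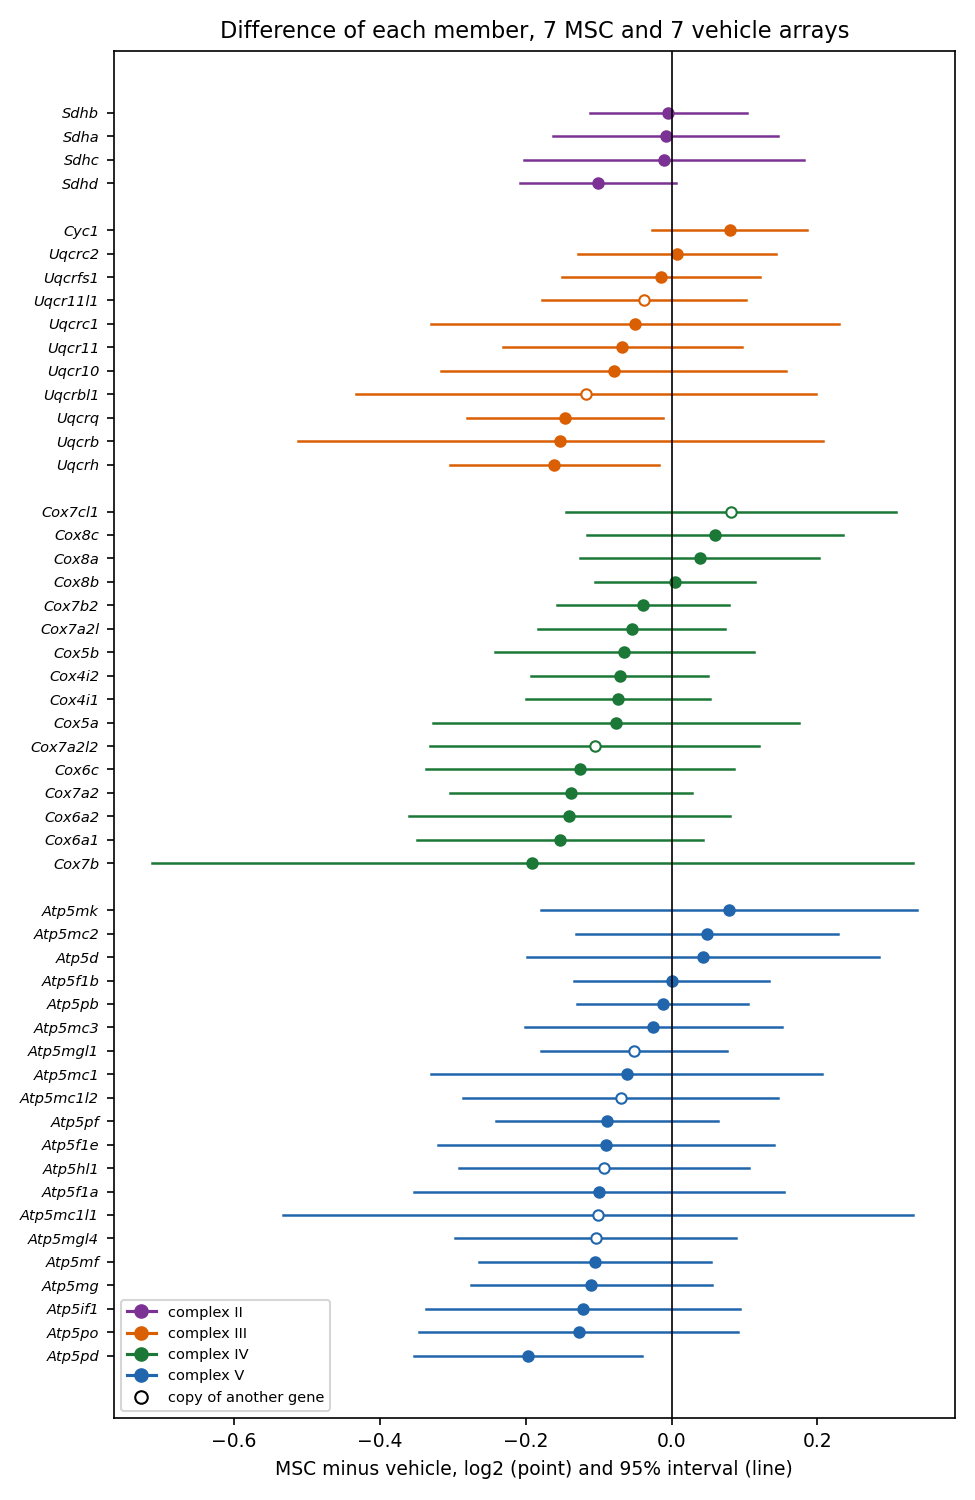
Log2 difference, MSC minus vehicle, of each of the 51 members (points) with its 95% interval from limma (lines), grouped by complex; open points are copies. Most points lie left of 0, and the intervals of all but Uqcrh, Uqcrq and Atp5pd cross it.

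Complex II had the median difference nearest to 0. All 4 of its genes had a lower mean, with a median of -0.0092, but centring each array on its median turned Sdha, Sdhb and Sdhc above 0 and the median to 0.0068, and a further quantile normalization turned Sdha and Sdhb. Sdha, the flavoprotein that oxidises succinate, ran from 11.98 through a median of 12.29 to 12.35 on MSC arrays and from 12.12 through 12.24 to 12.50 on vehicle arrays, a difference of -0.0082 ± 0.072 (SE). Sdhb, the iron-sulfur subunit, differed by -0.0046 ± 0.051. Sdhc, a membrane anchor, differed by -0.010 ± 0.090. Sdhd, the partner anchor, was the exception in size. Sdhd ran from 8.55 through 8.63 to 8.70 on MSC arrays and from 8.61 through 8.73 to 8.88 on vehicle arrays. All 7 MSC arrays were below the vehicle mean of 8.72, while vehicle 3, 6 and 7 lay inside the MSC range. The difference was -0.10 ± 0.051 (unadjusted p = 0.064, adjusted p = 0.9999, limma).

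In complex III, 9 of 11 genes had a lower mean, with a median of -0.067. The 2 small subunits with the lowest p-values led them. Uqcrh, the hinge protein between cytochrome c1 and cytochrome c, ran from 8.81 through 8.85 to 9.05 on MSC arrays and from 8.87 through 9.04 to 9.27 on vehicle arrays. Every MSC array lay below the vehicle mean of 9.06, but vehicle 1, 2, 3 and 7 fell inside the MSC range. The difference was -0.16 ± 0.068 (unadjusted p = 0.031, adjusted p = 0.9999, limma). Uqcrq, a small subunit near the ubiquinone site, ran from 7.44 through 7.66 to 7.78 on MSC arrays and from 7.74 through 7.74 to 7.93 on vehicle arrays. All 7 MSC arrays were again below the vehicle mean, 3 of them inside the vehicle range. Its difference was -0.15 ± 0.063 (unadjusted p = 0.035, adjusted p = 0.9999, limma).

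The electron-carrying and core subunits of complex III did not share that size. Cyc1, cytochrome c1, had the largest positive difference of the complex, with 9.21, 9.34 and 9.40 as the lowest, median and highest MSC values against 9.10, 9.24 and 9.31 on vehicle arrays. Its difference was 0.080 ± 0.050 (unadjusted p = 0.13, limma), and 5 of 7 MSC arrays were above the vehicle mean. Uqcrfs1, the Rieske iron-sulfur protein, differed by -0.014 ± 0.064, and by 0.0015 with arrays centred on their medians. The core proteins Uqcrc1 and Uqcrc2, which hold the complex together on its matrix side, differed by -0.050 ± 0.13 and 0.0070 ± 0.064. Uqcrb, chosen after its values were seen, was among the most variable. It ran from 9.79 to 11.03 on MSC arrays and from 10.31 to 11.13 on vehicle arrays, with MSC 3 lowest. Its difference was -0.15 ± 0.17, and the small subunits Uqcr10 and Uqcr11 differed by -0.079 ± 0.11 and -0.067 ± 0.077. With single arrays left out, the median of the complex ran from -0.10 without vehicle 3 to -0.016 without MSC 3. It was -0.029 without vehicle 5 and -0.032 without vehicle 7.

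**Figure D2:**
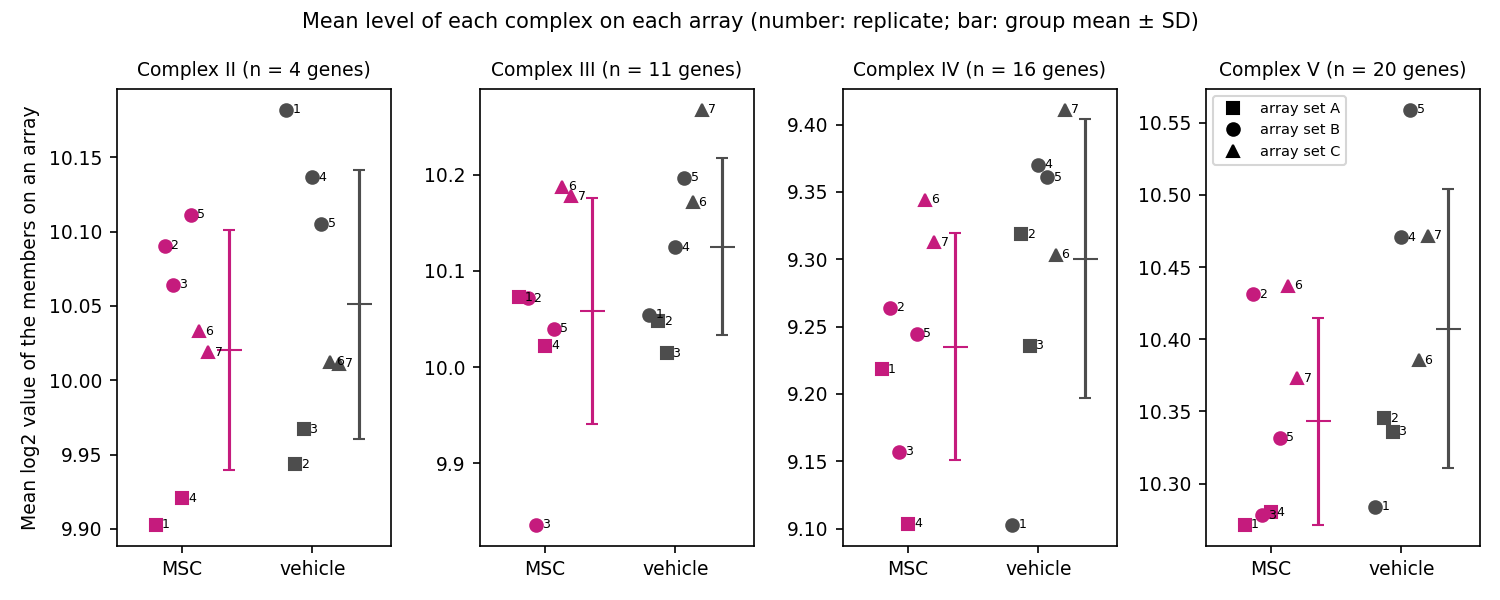
Mean log2 value of the members of each complex on each array, in the MSC and vehicle groups; numbers are replicates, marker shapes are the array sets told apart by ERCC control probe sets, and bars give the group mean ± SD. The groups overlap in all 4 complexes, and MSC 3 is lowest in complex III at 9.84.

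In complex IV, 12 of 16 genes had a lower mean, with a median of -0.072. The 3 with the smallest p-values were lower in the MSC group. Cox7a2, a small general subunit, ran from 12.84 through 12.98 to 13.23 on MSC arrays and from 12.86 through 13.21 to 13.28 on vehicle arrays, and 5 MSC values were under the vehicle mean (difference -0.14 ± 0.078, unadjusted p = 0.098, limma). Cox6a1, the general form of subunit VIa, ran from 12.86 through 13.23 to 13.47 and from 13.20 through 13.33 to 13.58 (difference -0.15 ± 0.092, unadjusted p = 0.12, limma). Neither gene passed any threshold, and both groups overlapped. Among the subunits that surround the catalytic core, Cox4i1 differed by -0.074 ± 0.059, Cox5a by -0.076 ± 0.12 and Cox5b by -0.065 ± 0.084. Leaving out single arrays moved these values both ways. Cox4i1 ran from -0.10 without vehicle 6 to -0.048 without MSC 2. Cox5a ran from -0.14 without vehicle 1 to -0.016 without vehicle 4, and Cox5b from -0.11 without vehicle 1 to -0.011 without MSC 3. Cox7a2l, a factor that joins complexes III and IV into supercomplexes, differed by -0.055 ± 0.061. That difference was -0.012 without MSC 3 and -0.076 without MSC 4. The largest positive difference of the complex was in Cox7cl1, the name of a Cox7c copy (0.082 ± 0.11). Cox6c, a small subunit with no isoform among the members, differed by -0.13 ± 0.099. Cox7b, another general subunit, had the widest spread of all members. Its values ran from 11.18 through 12.22 to 12.45 on MSC arrays and from 11.36 through 12.42 to 12.58 on vehicle arrays. Low values came from both groups: MSC 1, 3 and 4 and vehicle 1, 2 and 3 lay at or below 11.90, and the other 8 arrays at or above 12.22. The group difference of -0.19 ± 0.25 was smaller than its error, and it was -0.064 without MSC 4 and -0.32 without vehicle 1.

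Muscle, lung and testis isoforms were compared with their general partners on each array. The balance, the restricted isoform's log2 value minus that of its partner, removes only a shift that moves both probe sets equally. Cox4i2, the lung isoform, Cox8b, the heart and muscle isoform, and Cox7b2 and Cox8c, the testis isoforms, lay below the median of the array's negative control probe sets (6.32 to 6.61) on all 14 arrays. Cox6a2, the heart and muscle isoform, lay above it on 7 of 14 arrays, so none of the 5 restricted isoforms stood clear of background, and their differences and balances are not read as levels of these mRNAs. Of the 51 members, 43 were above the negative control median on all 14 arrays, and the others were these 5, Cox7cl1, Atp5hl1 and Atp5mgl1. Cox6a2 ran from 6.04 through 6.44 to 6.80 on MSC arrays and from 6.32 through 6.45 to 6.69 on vehicle arrays. The vehicle range lay wholly inside the MSC range, and the difference was -0.14 ± 0.10 (unadjusted p = 0.20, limma). The 10 skeletal muscle markers averaged 5.95 to 6.13 on every array, below the negative control medians, and 4 of them lay below the array median too. Acta1 stood clear of the negative controls, at 8.38 on MSC and 8.33 on vehicle arrays. The part of these markers in the Cox6a2 signal was not tested. In mouse brain, Cox6a2 is known from parvalbumin interneurons. Pvalb, the gene of parvalbumin, was lower in the MSC group by -0.26 ± 0.099 (unadjusted p = 0.018, adjusted p = 0.9999, limma). The list for these interneurons holds 8 genes, 3 lower and 5 higher, with a median difference of 0.027. It includes Syt2 (-0.33 ± 0.19), and Gad1 (0.24 ± 0.14) and Gad2 (0.19 ± 0.11), which other GABAergic neurons share. The part of these cells in the Cox6a2 value was not tested.

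No isoform balance passed the test between the groups. Cox6a2 minus Cox6a1 ran from -7.13 through -6.86 to -6.41 on MSC arrays and from -7.04 through -6.88 to -6.55 on vehicle arrays. Their difference was 0.013 ± 0.12 (exact permutation over 3432 splits, two-sided, p = 0.919). The other 4 pairs gave 0.0024 ± 0.074 for Cox4i2 minus Cox4i1, 0.15 ± 0.29 for Cox7b2 minus Cox7b, -0.034 ± 0.063 for Cox8b minus Cox8a and 0.021 ± 0.10 for Cox8c minus Cox8a. Their exact permutation p-values were 0.976, 0.599, 0.612 and 0.841, and the adjusted p over the 5 pairs was 0.976 for each.

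**Figure D3:**
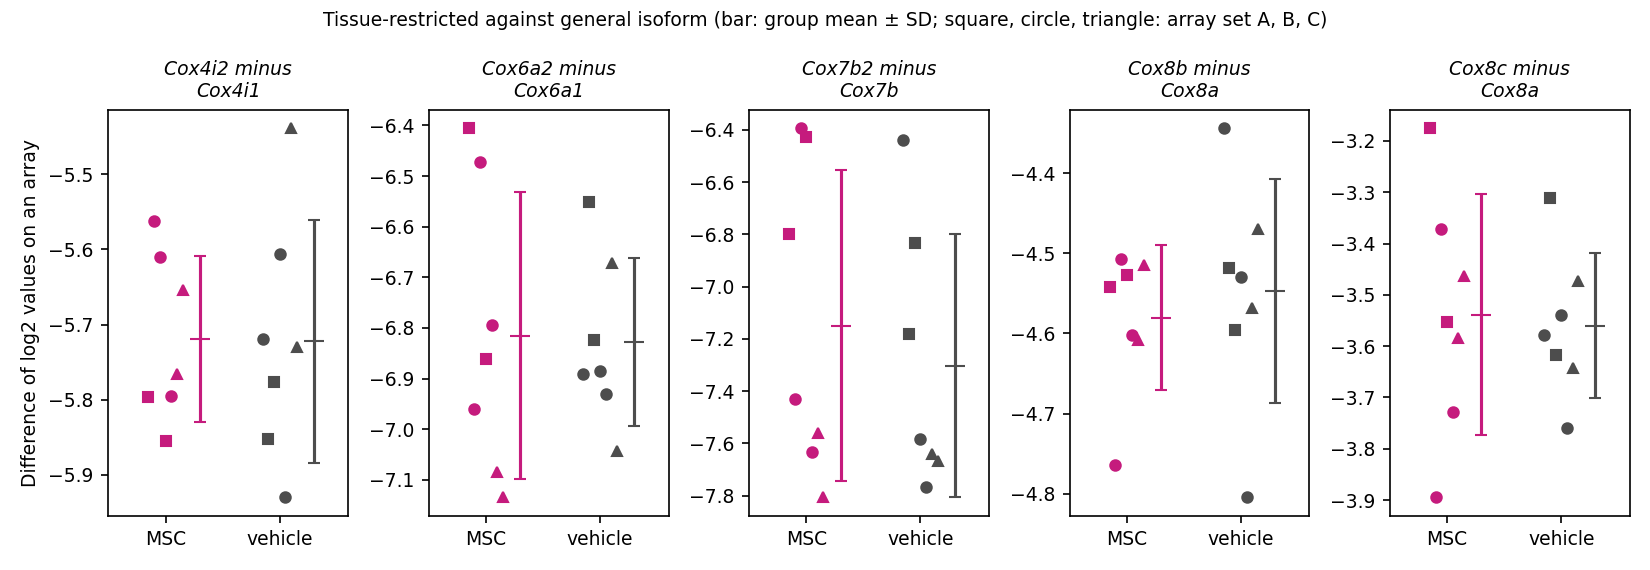
Log2 value of each restricted isoform minus its general partner on each array, with group means ± SD; marker shapes are array sets. The groups overlap in all 5 pairs, and the wide spread of Cox7b2 minus Cox7b follows Cox7b.

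In complex V, 16 of 20 genes had a lower mean, 3 a higher mean and 1, Atp5f1b, an equal mean. The median was -0.089, and it was -0.053 without MSC 3 and -0.097 without vehicle 1. Atp5pd, subunit d of the peripheral stalk, had the largest difference and the smallest p of all members. It ran from 13.09 through 13.39 to 13.43 on MSC arrays and from 13.38 through 13.44 to 13.71 on vehicle arrays. All 7 MSC arrays were below the vehicle mean of 13.49, and 4 of them lay above the lowest vehicle array. The difference was -0.20 ± 0.073 (unadjusted p = 0.017, adjusted p = 0.9999, limma). Its log2 difference was -0.16 without vehicle 3, the highest array, and -0.22 without MSC 6. Among the other stalk and membrane subunits, Atp5mg and Atp5mf (subunits g and f) differed by -0.11 ± 0.078 and -0.10 ± 0.075 (unadjusted p = 0.18 for each, limma). Atp5mg differed by -0.052 without MSC 3 and by -0.14 without MSC 7. The other peripheral stalk subunits, Atp5pb, Atp5pf and Atp5po, differed by -0.012 ± 0.055, -0.088 ± 0.072 and -0.13 ± 0.10, so the stalk genes ran from near 0 to the largest difference of the complex.

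The catalytic head of ATP synthase was measured by its alpha and beta subunits. Atp5f1a, the alpha subunit, ran from 13.30 to 13.89 on MSC arrays and from 13.38 to 13.97 on vehicle arrays (difference -0.099 ± 0.12). The difference was -0.049 without vehicle 7 and -0.15 without MSC 7. Atp5f1b, the catalytic beta subunit, differed by 0.00 ± 0.063. In the central stalk that turns inside the head, Atp5d, now named Atp5f1d, differed by 0.043 ± 0.11 and Atp5f1e by -0.090 ± 0.11. The c ring, which turns as protons pass, is encoded by 3 genes for the same mature protein: Atp5mc1 differed by -0.062 ± 0.13, Atp5mc2 by 0.049 ± 0.085 and Atp5mc3 by -0.025 ± 0.083. Atp5if1, the inhibitor that keeps the synthase from running backwards, differed by -0.12 ± 0.10. That difference was -0.062 without MSC 3 and -0.18 without vehicle 1. Atp5mk had the largest positive difference of the complex (0.079 ± 0.12), from a probe set whose identifier names chromosome 10, while RefSeq places the gene on chromosome 1. The probe set that names chromosome 1 gave -0.028 ± 0.062, so its direction depends on the probe set.

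Copies and shared probes limit some names. The 9 copies had 8 lower means and a median of -0.093, from -0.12 for Uqcrbl1 to 0.082 for Cox7cl1, and sequences they share with the subunit genes were not examined. Atp5hl1 is a pseudogene and Atp5mgl1 a long noncoding RNA in RefSeq. A further 6 probe sets carry several symbols, among them Cox7c and Atp5f1c, and were left out, as were 8 pseudogene probe sets. The probe set annotated to Cox7c and 1 further symbol had a higher mean in the MSC group, 7.37 against 7.14 (difference 0.23 ± 0.088, unadjusted p = 0.021, adjusted p = 0.9999, limma), larger in size than the difference of any member. The other 5 ran from -0.057 to -0.0059. For Atp5f1e and Atp5pb, the second probe set had a difference of -0.12 and -0.037, against -0.090 and -0.012 in the chosen probe sets.

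The arrays were divided into 3 sets, each with as many MSC as vehicle arrays. Clustering on the 92 ERCC control probe sets on the array, which match no rat gene, made the split after the values were seen. The number of sets was fixed at 3 and was not found by the clustering. Set A holds MSC 1 and 4 and vehicle 2 and 3, set B holds MSC 2, 3 and 5 and vehicle 1, 4 and 5, and set C holds MSC 6 and 7 and vehicle 6 and 7. No label names these sets. What separates the sets was not tested. Uqcrc1 was split almost completely: it ran from 9.69 to 9.74 in set A and from 10.14 to 10.35 in the other sets, and 96.8% of its variance lay between sets. Sdhc and Atp5f1a followed with 78.4% and 73.6%. Uqcrb ran from 9.79 to 10.71 in set B, below every array of sets A and C, with 59.4% of its variance between sets. Cox7b was at or below 11.90 on all 4 arrays of set A. Over the members the median share of variance between sets was 29.0%, against 22.0% for named genes above the array medians. More than 50% lay between sets for 15 members (29.4%), against 14.3% of those named genes. The complexes differed by set: the complex II mean was 9.93, 10.12 and 10.02 in sets A, B and C, and the complex III mean was 10.04, 10.05 and 10.20.

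**Figure D4:**
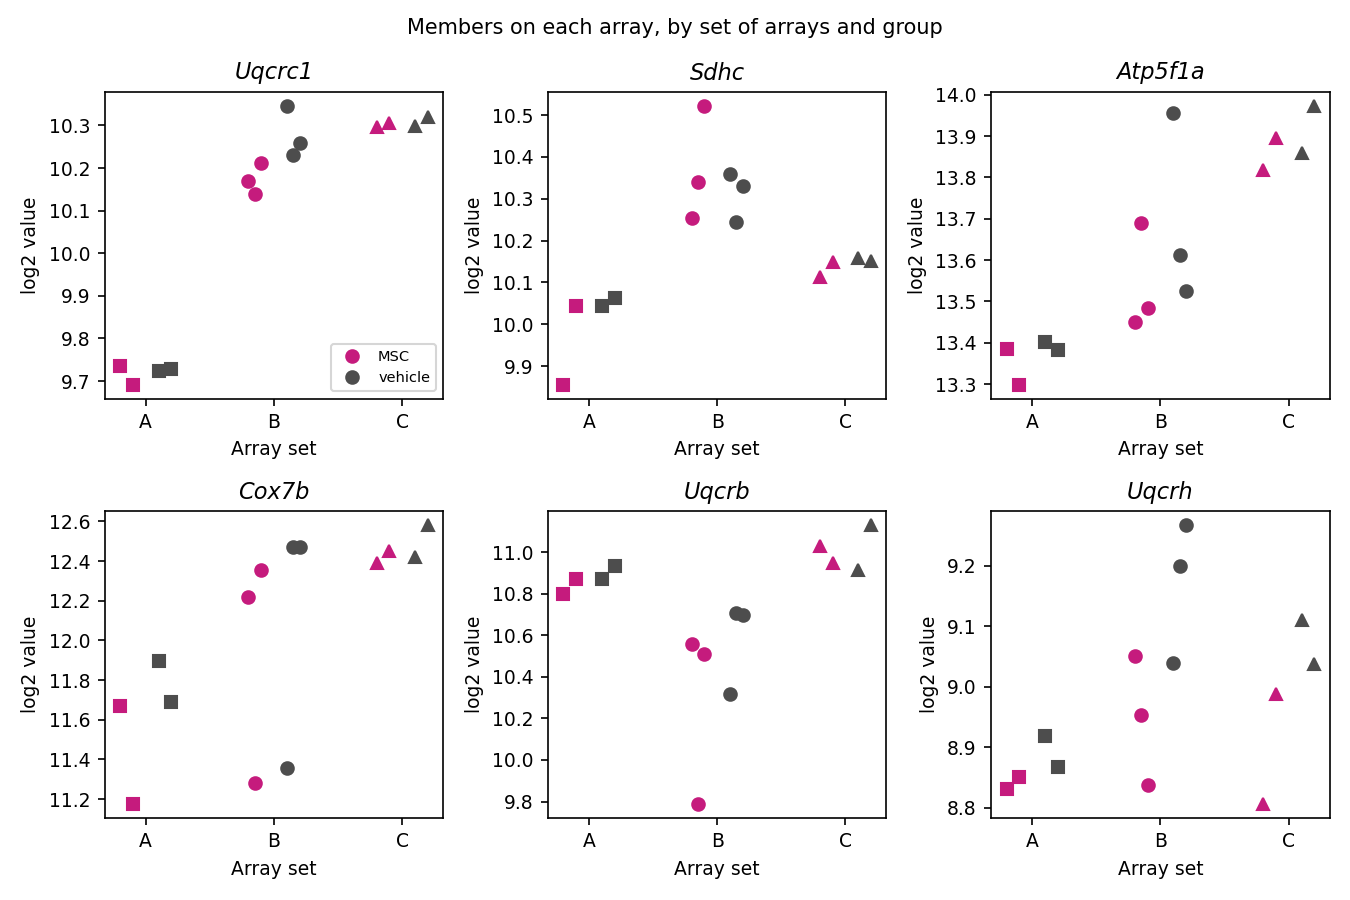
Log2 values of 6 members on each array, by array set (A, B, C) and group (pink MSC, grey vehicle). Uqcrc1, Sdhc and Atp5f1a follow the sets, Uqcrb is lowest in set B, Cox7b is low in set A and on 1 array of each group in set B, and the Uqcrh mean is lower for MSC in each set.

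The comparison was repeated with the array set as a term, and within each set. With the term, 0 members passed (smallest adjusted p = 0.997, limma), and 3 had an unadjusted p below 0.05, all lower, beside 3.08% of all probe sets lower and 1.32% higher. The differences were the same by construction, since the sets are balanced. Errors were smaller for Uqcrh (-0.16 ± 0.057), Uqcrq (-0.15 ± 0.059) and Atp5pd (-0.20 ± 0.067). For some members they were larger, such as Cox8c (0.085 against 0.083 without the term). Within sets, the median over the members was -0.067 in A, -0.11 in B and -0.034 in C, with 37, 41 and 31 lower means. A lower mean in all 3 sets was found for 19 members (37.3%), in 2 sets for 23, in 1 set for 6 and in none for 3, Cyc1, Cox7cl1 and Cox8c. Among named genes above the array medians, 12.8% were lower in all 3 sets.

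The members moved together on single arrays of both groups. MSC 4 had 40 of 51 members below their own 14-array median and vehicle 7 had 10. MSC 3 had 36 and MSC 1 had 34, but vehicle 1 and 3 had 33 each, and MSC 6 had 14. For named genes above the array medians, that share ran from 40.0% to 60.4% of genes on an array, against 19.6% to 78.4% of the members.

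**Figure D5:**
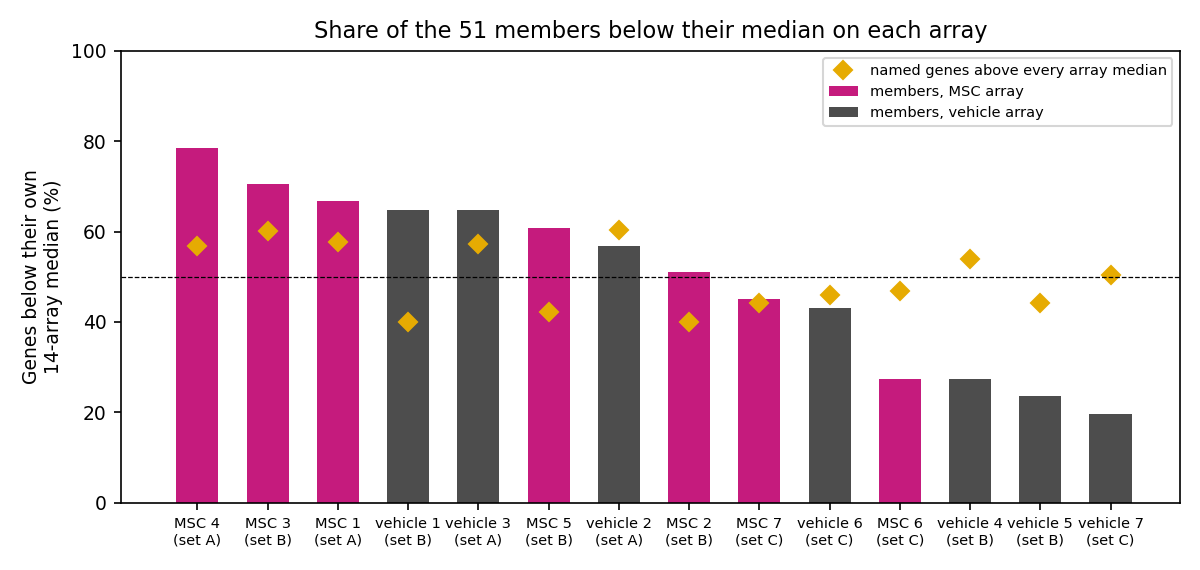
Percent of the 51 members below their own median over 14 arrays, on each array in falling order (bars), with the same percent for the 13701 named genes whose mean exceeds every array median (diamonds). MSC 4, 3 and 1 are highest, followed by vehicle 1 and 3, and vehicle 7 is lowest.

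Other genes of mitochondrial energy supply were read beside the members, and 0 of any list passed an adjusted p of 0.05 in limma. At an unadjusted p below 0.05, 3 complex I genes, Tfam and 4 probe sets of the mitochondrial chromosome were lower and 0 were higher. Of all tested probe sets, 2.41% were lower and 1% higher at that threshold. Complex I subunits had 30 of 35 lower means with a median of -0.071. Assembly factors of complexes II to V, which build the complexes without staying in them, had 21 of 36 lower means with a median of -0.022. Carriers of adenine nucleotides, phosphate and pyruvate, listed with the outer membrane channels Vdac1, Vdac2 and Vdac3, had 7 of 8 lower means (median -0.024). The channels differed by -0.022, -0.014 and -0.026. Among the inner membrane carriers, Slc25a5 differed by 0.057 and Mpc1, part of the pyruvate carrier, by -0.21 ± 0.10. Enzymes of the tricarboxylic acid cycle had 7 of 12 lower means (median -0.015), and glycolysis had 6 of 17 (median 0.046). The regulators of respiratory genes had 5 of 14 lower means with a median of 0.022. Among them, Tfam, the factor that packages and transcribes mitochondrial DNA, differed by -0.16 ± 0.074 (unadjusted p = 0.050, limma), Nrf1 by 0.031 ± 0.047, and Gabpa, the ETS factor, by 0.037 ± 0.083. Cytochrome c and supercomplex factors had 3 of 5 lower means (median -0.014). The 40 probe sets whose identifiers place them on the mitochondrial chromosome had 23 lower means and a median of -0.011. Their mean was highest on MSC 3 (14.76), the array with the lowest mean over the members. The mean of these probe sets was 14.61 on vehicle 4, 14.57 on vehicle 1 and 14.52 on vehicle 5. Vehicle 5 had the highest mean over the members, and vehicle 1 a low one (9.86). MSC 3 and these vehicle arrays belong to array set B, as do MSC 2 (14.29) and MSC 5 (14.34).

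Marker and ribosomal lists are given for the same arrays, and 0 of their genes passed an adjusted p of 0.05 in limma. At an unadjusted p below 0.05, 7 ribosomal, 2 endothelial and 1 each of the parvalbumin, microglia and pericyte lists were lower and 0 were higher. The shares over all tested probe sets were 2.41% lower and 1% higher. Ly6c, 1 of the 2 endothelial genes, averaged 4.88 on MSC and 5.22 on vehicle arrays, below the negative control medians (6.32 to 6.61). Kcnj8, the pericyte gene, averaged 6.23 and 6.40 and was not clear of them. Neither is read as a level of its mRNA, and Ly6c is among the 7 endothelial markers below. Cytosolic ribosomal protein genes had 64 of 70 lower means with a median of -0.092. Astrocyte markers had a higher mean in 8 of 8 genes (median 0.097), endothelial markers a lower mean in 7 of 7 (median -0.16), red blood cell markers a higher mean in 5 of 5 (median 0.34), and excitatory neuron markers a higher mean in 6 of 7 (median 0.087). Lower means were found for 5 of 7 oligodendrocyte markers (median -0.045), 4 of 8 microglia markers (median 0.0094), 5 of 9 pericyte and smooth muscle markers (median -0.016), 8 of 10 skeletal muscle markers (median -0.016) and 3 of 6 choroid plexus markers (median -0.020). As a mean per array, the astrocyte list differed by 0.11 ± 0.11 and the red blood cell list by 0.33 ± 0.31. The mean log2 value of the endothelial list on an array ran from 7.78 to 8.20 on MSC arrays and from 8.04 to 8.60 on vehicle arrays. Their part in the members' differences was not tested.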

How the data were processed

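The authors deposited log2 expression values per probe set, and the submitters' processing notes name Affymetrix Expression Console and RMA. Not given in the sources used here are the versions, the settings and the annotation's genome build. RMA can pull small differences of dim probe sets towards 0 and can hide a shift common to most transcripts.

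From the 70580 probe sets, 1738 controls were left out, and 68842 were tested. Gene names came from the platform annotation supplied for these probe sets: 23446 had a single symbol, 505 several and 44891 none, and only single symbols were named. Some symbols may be old. No pair of the 14 arrays held identical values. The 7 MSC and 7 vehicle arrays were compared by lmFit and eBayes without covariates, in limma 3.58.1 under R 4.3.3. Adjustment was by Benjamini-Hochberg across the 68842 probe sets, with calls at an adjusted p below 0.05. Isoform balances were compared by exact permutation, adjusted over the 5 pairs. The fit was checked on simulated data with independent errors, no array sets and planted shifts larger than any member's difference. That check does not bear on differences of the size seen here. The number of arrays limits the precision.

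Members, lists, tests and the rule for named genes were chosen with earlier results of these data known, including lower means over the respiratory chain, so these are not independent support. Named were the Sdh genes, the core and catalytic subunits, the isoform pairs, and per complex III, IV and V the 3 smallest p-values and the largest positive difference. Others named were chosen after their values were seen. Same-numbered MSC and vehicle arrays correlated at -0.31 to 0.27 in their deviations from the group means, and 2 of 7 matched best with their own number, so numbers were not taken as pairs. Alternatives changed the scaling, filter, probe set choice, arrays used and weights. Array sets, the arrays without choroid plexus signal and the probe set on the gene's chromosome were added after seeing the data.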

Additional observations from a re-analysis of the deposited data

Results flagged for a closer look

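A single array stood apart from the other 6 of its group in 5 of 86 checks of named genes, isoform balances and complex means, and chance gives about 1 in 20. Vehicle 1 accounted for 3 of them. Cox7a2, a small complex IV subunit, was 12.86 on vehicle 1, and the nearest vehicle array was at 13.16. Atp5mf, subunit f of ATP synthase, was 9.86 there against a nearest value of 10.10. Sdha, the flavoprotein of complex II, was instead high on that array, at 12.50 against 12.28. On MSC 3, Atp5mg, subunit g of ATP synthase, was 8.86, and the nearest MSC array was at 9.18. The balance of Cox8b over Cox8a was -4.76 on MSC 2 and next lowest at -4.61. All 5 gaps exceeded the limit of 0.568 of the group's range for 7 arrays.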

How the results depend on the processing

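No member passed an adjusted p of 0.05 under any alternative run. The count of members with a lower mean was 31 with replicates 6 and 7 alone and 36 to 43 under the other alternatives, and it was 36 to 44 with single arrays left out, when the median difference ran from -0.080 to -0.039. The medians of complexes III, IV and V stayed below 0 in each alternative, and that of complex II ran from -0.049 to 0.017. Replicate numbers as a block gave 41 lower means and 0 members past the threshold, and changed no call. The cause of the sign changes that follow was not tested. With a further quantile normalization, the opposite sign was found for Sdha at 0.0012, Sdhb at 0.0074 and Uqcrfs1 at 0.0010. With arrays centred on their medians, the opposite sign was found for Sdha at 0.0078, Sdhb at 0.011, Sdhc at 0.0057 and Uqcrfs1 at 0.0015. With MSC 7 counted as vehicle, the opposite sign was found for the balance Cox4i2 minus Cox4i1 at -0.017, the balance Cox8c minus Cox8a at -0.0034, Atp5mc1 at 0.017, Cox7b2 at 0.0065, Sdhc at 0.00060 and Uqcrc2 at -0.025. With replicates 1 to 5 alone, the opposite sign was found for Cox8b at -0.011, Uqcrc2 at -0.044 and Uqcrfs1 at 0.013. With replicates 6 and 7 alone, the opposite sign was found for the balance Cox4i2 minus Cox4i1 at -0.13, the balance Cox6a2 minus Cox6a1 at -0.25, the balance Cox7b2 minus Cox7b at -0.030, Atp5mc3 at 0.034, Atp5mf at 0.049, Cox4i1 at 0.051, Cox5a at 0.10, Cox7a2 at 0.0071, Sdha at 0.081 and Sdhb at 0.057. With array weights, the opposite sign was found for Sdha at 0.011, Sdhb at 0.0072 and Sdhc at 0.0054. In array set A, the opposite sign was found for the balance Cox4i2 minus Cox4i1 at -0.011, the balance Cox8b minus Cox8a at 0.023, Atp5mc1 at 0.039, Atp5mk at -0.067, Cox7a2l at 0.11, Cox7b2 at 0.026, Cox8a at -0.081, Cox8b at -0.058, Sdhb at 0.026 and Uqcrfs1 at 0.067. In array set B, the opposite sign was found for the balance Cox8c minus Cox8a at -0.039, Atp5mc2 at -0.019, Cox5b at 0.028, Cox6a2 at 0.10, Sdhc at 0.060 and Uqcrc2 at -0.13. Without MSC 4 and vehicle 2, the opposite sign was found for Sdha at 0.013 and Uqcrc2 at -0.0078. With the probe set on the gene's chromosome, the opposite sign was found for Atp5mk at -0.028. Leaving out single arrays gave both signs for the balance Cox6a2 minus Cox6a1 -0.056 to 0.066, the balance Cox8c minus Cox8a -0.039 to 0.080, Atp5mc3 -0.075 to 0.0085, Sdha -0.029 to 0.035, Sdhb -0.033 to 0.011, Sdhc -0.067 to 0.044, Uqcrc1 -0.12 to 0.014, the balance Cox4i2 minus Cox4i1 -0.032 to 0.050, Uqcrfs1 -0.048 to 0.013, Cox8b -0.022 to 0.023, Uqcrc2 -0.021 to 0.031, the balance Cox8b minus Cox8a -0.076 to 0.00030 and Atp5mc1 -0.13 to 0.025. The isoform balances rest on restricted isoforms at or below the negative controls, which limits all 5. With 7 arrays per group, the median interval of 0.176 to either side limits what can be resolved.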
